A study of Mus musculus with 8 samples.

Results

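The circadian clock genes described here are 10 genes chosen by symbol, out of 48587 symbols in the deposited count table. Arntl, Clock and Npas2 form the positive arm, Per1, Per2, Per3, Cry1, Nr1d1 and Nr1d2 the negative arm, and Dbp is an output gene. All 10 were expressed and tested, among 16194 genes that passed a filter on low counts. RNA was sequenced from the whole aortic tree of mice in 4 groups of 2 libraries. Tet2KO_VitD and Tet2KO_vehicle libraries are labelled as a Tet2 knockout restricted to vascular smooth muscle cells and were given vitamin D (VitD) or vehicle. WT_VitD and WT_vehicle libraries are labelled wild type, described for the series as litter controls, with the same pair of treatments. The Cre driver, the dose and duration of VitD, the age of the mice and the hour at which tissue was taken are not stated in the sources used here. Whether a pair of libraries stands for 2 mice is also not stated, and the p-values below cover the spread between libraries, which may be technical.

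The mammalian clock is a feedback loop of transcription. ARNTL (also called BMAL1) pairs with CLOCK or its relative NPAS2, binds E-boxes and activates the Per, Cry, Nr1d and Dbp genes. PER and CRY proteins block that activator, while the nuclear receptors NR1D1 and NR1D2 repress Arntl, Npas2 and Clock through ROR elements. As a result Arntl and Npas2 transcripts peak at nearly the opposite time of day from Nr1d1, Dbp and the Per transcripts, and Cry1 peaks later than the Per genes. Blood vessels carry such a clock, and smooth muscle, fat and immune cells each run their own.

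Libraries held 15679274 to 22332149 counts. The targeted gene did not bear out the genotype labels. Tet2 stood at 42.0 and 35.2 CPM (counts scaled to a common library size by TMM normalisation) in Tet2KO_vehicle libraries, against 35.8 and 32.2 CPM in WT_vehicle libraries. With VitD, Tet2 had 26.6 and 37.6 CPM in Tet2KO_VitD libraries, against 18.3 and 20 CPM in WT_VitD libraries. Neither difference passed edgeR's quasi-likelihood test (log2 fold change 0.18, SE 0.21, adjusted p = 1, and log2 0.74, SE 0.21, adjusted p = 0.457). Which exons were deleted is not stated in the sources used here, and the label restricts the deletion to smooth muscle, so the genotype is checked only in part. All genotype directions below are those of the labels. The library names carry numbers in 2 ranges, a higher one (Tet2KO_VitD 1, WT_VitD 1 and WT_VitD 2) and a lower one (the 5 others). The share of counts on ribosomal protein genes was 4.85% to 5.51% in the higher range and 2.1% to 2.57% in the lower. The labels do not call these ranges batches. In WT the range and the treatment coincide, so they cannot be told apart there.

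The promoters shown are those of members with a match to a motif known from the loop or its output factors. The matches are of letters only, and binding was not measured. RefSeq promoters (build GRCm38.p6, the same assembly as mm10) were found for 9 of the 10 genes. Capitals mark motif matches on either strand in the 250 bases before the start of transcription, printed 5′ to 3′ on the gene's strand. Per3 (chr4:151044666-151044915, minus strand) holds the D-box TTATGTAA, the element bound by DBP and its relatives, at positions -205 and -158 from the start. Nr1d1 (chr11:98775378-98775627, minus strand) holds AACGTG, the reverse complement of the E-box variant CACGTT, at -28. Per1 (chr11:69098699-69098948, plus strand) holds the E-box CACGTG at -166. Cry1 (chr10:85185055-85185304, minus strand) holds an E-box at -60 and AACGTG at -79.
Per3: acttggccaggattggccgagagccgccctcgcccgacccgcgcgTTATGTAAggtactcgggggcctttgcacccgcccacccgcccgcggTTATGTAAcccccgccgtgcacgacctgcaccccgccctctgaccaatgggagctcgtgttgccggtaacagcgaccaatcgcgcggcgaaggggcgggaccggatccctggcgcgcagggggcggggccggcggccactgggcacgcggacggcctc
Nr1d1: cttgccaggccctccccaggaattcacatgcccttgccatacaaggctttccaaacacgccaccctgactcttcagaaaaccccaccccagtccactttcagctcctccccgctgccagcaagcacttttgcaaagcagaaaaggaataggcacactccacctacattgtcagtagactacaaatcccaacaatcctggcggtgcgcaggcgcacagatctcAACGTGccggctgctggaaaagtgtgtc
Per1: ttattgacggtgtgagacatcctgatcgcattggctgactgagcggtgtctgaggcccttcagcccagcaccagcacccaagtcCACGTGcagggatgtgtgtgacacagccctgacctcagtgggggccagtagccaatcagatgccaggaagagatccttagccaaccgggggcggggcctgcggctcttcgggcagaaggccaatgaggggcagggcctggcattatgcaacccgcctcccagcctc
Cry1: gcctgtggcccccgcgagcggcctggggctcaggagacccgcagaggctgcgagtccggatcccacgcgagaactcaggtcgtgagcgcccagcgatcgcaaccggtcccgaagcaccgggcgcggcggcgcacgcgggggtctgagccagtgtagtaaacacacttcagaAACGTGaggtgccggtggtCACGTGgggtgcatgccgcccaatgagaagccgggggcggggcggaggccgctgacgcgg

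Arntl is given as a short window, since its match lay after the start of transcription. The ROR element TAGGTCA begins at position 31 from its second RefSeq start (chr7:113207531-113207557, plus strand), with 10 bases on each side.
Arntl: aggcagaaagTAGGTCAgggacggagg
Among 27025 genes with a RefSeq promoter of the same length, from 250 bases before to 50 after the start, CACGTG occurred in 8.09%, CACGTT or its reverse complement in 5.44%, TAGGTCA or its reverse complement TGACCTA in 2.97%, and the D-box (TTATGTAA, its reverse complement TTACATAA, or TTACGTAA) in 1.23%. No motif of these overlapped another in the promoters shown. Clock, Npas2, Nr1d2 and Dbp held no match in their windows, which says only that these letters are not there.

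Levels between genes were compared per kilobase of exon. Nr1d1, at a mean of 59.8 CPM per kilobase over the 8 libraries, was the most abundant of the 10, followed by Nr1d2 (25.2), Per1 (20.5), Dbp (16.8) and Per2 (13.4). Clock (7.41), Per3 (4.93), Npas2 (3.78), Arntl (2.4) and Cry1 (2.21 CPM per kilobase) were lower. The ranges of neighbours in this order overlapped over libraries: Nr1d1 ranged from 19.3 to 112 and Nr1d2 from 13.4 to 39.9 CPM per kilobase. Within each of the 8 libraries, however, Nr1d1 was higher than Nr1d2. Clock was the steadiest, its highest library being 1.34 times its lowest, whereas the same ratio was 5.79 for Nr1d1, 4.91 for Npas2 and 4.80 for Per2. Cry1 rested on the fewest reads, 50 to 207 counts per library, and Nr1d1 on 1048 to 5965.

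**Figure D1:**
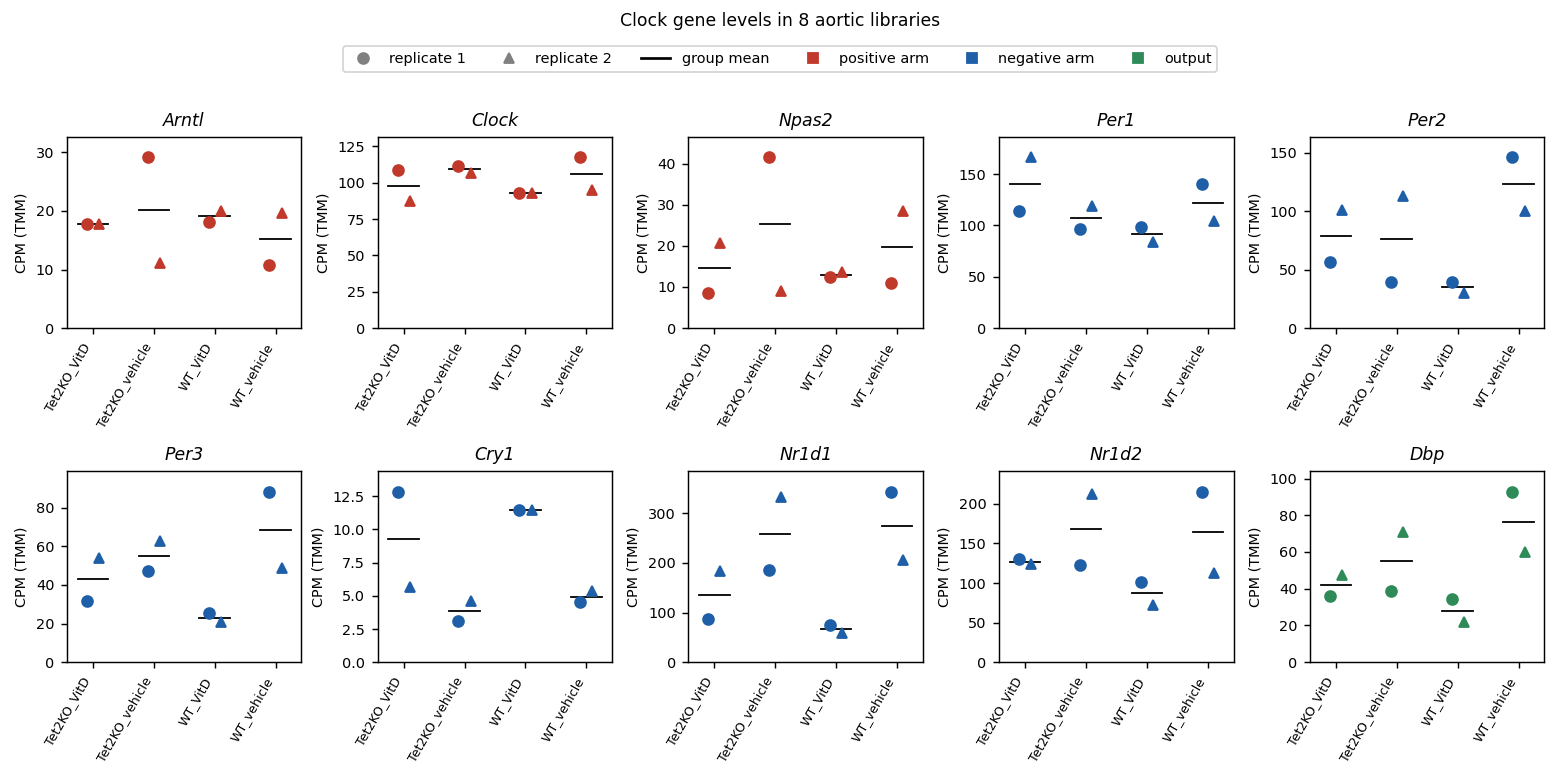
Level of each clock gene (vertical axis, CPM after TMM normalisation, from 0) in the 4 groups (horizontal axis), with a circle for replicate 1, a triangle for replicate 2 and a line for the group mean. WT_VitD libraries sit lowest for Per2, Per3, Nr1d1 and Dbp except that Per2 of Tet2KO_vehicle 1 lies at 39.3 CPM, between the WT_VitD libraries, and both vehicle groups are wide for Arntl and Npas2.

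The WT libraries compare VitD with vehicle in the control aorta, where treatment and number range coincide and cannot be told apart. Per2, Per3, Nr1d1 and Dbp were lower with VitD, while none of the positive arm was called. Thus 4 of 10 members were called lower and 0 higher (edgeR, adjusted p under 0.05), where 9.47% of all 16194 genes were called lower, 10.6% higher and 20.1% in either direction. The median log2 fold change was -0.76 over the 10 members and -0.03 over all genes tested. In 8 of 10 members the WT_VitD and WT_vehicle libraries did not overlap, against 69.2% of all genes, so that this count is near the background.

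Nr1d1 (chromosome 11, 98767932 to 98775333, minus strand, mm10), the nuclear receptor that represses Arntl, stood at 75.7 and 59.3 CPM in WT_VitD libraries, against 344 and 205 CPM in WT_vehicle libraries. The groups do not overlap, and WT_vehicle 1 is much the higher of its pair. Its log2 fold change was -2.02 (SE 0.43, edgeR adjusted p = 0.0185), and 4.2% of all genes had a lower value. The exons of Nr1d1 overlap those of Thra, the thyroid hormone receptor alpha gene on the other strand, with 263 shared exon bases or 8.5% of the exon length of Nr1d1. The kit marks strand, but the strand setting of the counting is not stated in the sources used here. Thra itself stood at 155 and 111 CPM in WT_VitD libraries, against 148 and 221 CPM in WT_vehicle libraries (log2 -0.47, adjusted p = 0.254).

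Nr1d2 (chromosome 14, 18204054 to 18239127, minus strand), its close relative, stood at 101 and 72.6 CPM in WT_VitD libraries, against 216 and 113 CPM in WT_vehicle libraries. The groups are only just apart, and the log2 fold change of -0.92 (SE 0.35, adjusted p = 0.0920) did not pass the test. Nr1d2 was called lower by DESeq2 (adjusted p = 0.0354) and without the filter on low counts (0.00229), in 2 of 16 alternatives. Without WT_vehicle 1 its log2 fold change was -0.37 (adjusted p = 0.509), and over all alternatives it ranged from -1.31 to -0.37.

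Per2 (chromosome 1, 91415982 to 91459324, minus strand), a core repressor of the loop, stood at 39.8 and 30.4 CPM in WT_VitD libraries, against 146 and 100 CPM in WT_vehicle libraries. Both WT_VitD values are less than those of either WT_vehicle library, and the log2 fold change was -1.81 (SE 0.47, adjusted p = 0.0312). Per3 (chromosome 4, 151003652 to 151044665, minus strand), whose promoter carries a pair of D-boxes, stood at 25.4 and 20.8 CPM in WT_VitD libraries, against 88.4 and 48.9 CPM in WT_vehicle libraries. Its groups do not overlap either, and its log2 fold change was -1.57 (SE 0.34, adjusted p = 0.0192). Per1 (chromosome 11, 69095217 to 69109960, plus strand), a period gene that also answers hormones and acute stimuli, stood at 98.7 and 83.7 CPM in WT_VitD libraries, against 140 and 104 CPM in WT_vehicle libraries. The groups barely part, and the log2 fold change of -0.42 (SE 0.24, adjusted p = 0.232) did not pass the test.

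Dbp (chromosome 7, 45705088 to 45710203, plus strand), a transcription factor driven directly by E-boxes that relays the clock to its target genes, stood at 34.2 and 21.7 CPM in WT_VitD libraries, against 92.9 and 59.8 CPM in WT_vehicle libraries. Every WT_VitD library lies below every WT_vehicle library, and the log2 fold change was -1.45 (SE 0.35, adjusted p = 0.0259). Dbp shares 539 exon bases (18%) with Sphk2, a sphingosine kinase gene on the other strand. Sphk2 stood at 37.7 and 36.6 CPM in WT_VitD libraries, against 29.5 and 43.5 CPM in WT_vehicle libraries (log2 0.03, adjusted p = 0.944).

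Cry1 (chromosome 10, 85131700 to 85185064, minus strand), the cryptochrome that peaks late and blocks CLOCK and ARNTL most strongly, was the member of the negative arm with a log2 fold change above 0. It was at 11.5 CPM in both WT_VitD libraries, against 4.54 and 5.36 CPM in WT_vehicle libraries. The WT_VitD libraries are the higher and do not overlap with WT_vehicle, but the log2 fold change of 1.21 (SE 0.40, adjusted p = 0.0607) missed the threshold. It passed in 5 of 16 alternatives, DESeq2 among them (adjusted p = 0.0238). Without 1 of the 4 WT libraries the adjusted p was 0.144 to 0.224, with log2 fold changes of 1.10 to 1.34.

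The positive arm gave no call in WT. Arntl (chromosome 7, 113207465 to 113314126, plus strand), the obligate partner of the activator, stood at 18.2 and 20 CPM in WT_VitD libraries, against 10.8 and 19.7 CPM in WT_vehicle libraries (log2 0.32, SE 0.42, adjusted p = 0.601). Npas2 (chromosome 1, 39193731 to 39363236, plus strand), the relative of CLOCK with the wider daily swing, stood at 12.3 and 13.5 CPM in WT_VitD libraries, against 11 and 28.4 CPM in WT_vehicle libraries (log2 -0.61, SE 0.70, adjusted p = 0.547). Clock (chromosome 5, 76209868 to 76304792, minus strand), whose transcript cycles weakly, stood at 93.1 CPM in each WT_VitD library, against 117 and 94.7 CPM in WT_vehicle libraries (log2 -0.19, SE 0.18, adjusted p = 0.481). For Npas2 the WT_VitD pair lies inside the span of the WT_vehicle pair, Arntl overlaps as well with WT_VitD 2 just above WT_vehicle 2, and the Clock pairs are only just apart. The positive arm as a whole had 1 log2 fold change above 0 and 2 below, with a median of -0.19, whereas the negative arm had 1 above and 5 below, with a median of -1.24.

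The 4 calls in WT were mostly lost when 1 WT library was left out, which leaves its group with 1 library. Without WT_VitD 1 the adjusted p was 0.0668 for Nr1d1, 0.0994 for Per2, 0.0685 for Per3 and 0.0562 for Dbp. Without WT_VitD 2 it was 0.158, 0.204, 0.162 and 0.196 in the same order of genes, and without WT_vehicle 1 it was 0.0999, 0.146, 0.106 and 0.142. Without WT_vehicle 2 only Nr1d1 (0.0496) and Per3 (0.0442) kept their calls, and Per2 (0.0685) and Dbp (0.0534) did not. The sign of all 4 stayed negative in each of these fits. Without WT_VitD 1 the log2 fold changes were -2.17 for Nr1d1, -1.98 for Per2, -1.68 for Per3 and -1.77 for Dbp, and without WT_vehicle 1 they were -1.59, -1.51, -1.08 and -1.09 in the same order. Adding the number range as a covariate left no member called in WT. That fit rests on the difference between Tet2KO_VitD 1 and Tet2KO_VitD 2, and its log2 fold changes were -0.94 for Nr1d1, -0.98 for Per2, -0.82 for Per3, -1.05 for Dbp and 0.03 for Cry1.

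Several members were separated between the number ranges. All 3 libraries of the higher range were given VitD, and Tet2KO_VitD 2 is the only VitD library of the lower range. Range and treatment therefore nearly coincide over the libraries. Cry1 lay at 11.5 to 12.9 CPM in the 3 libraries of the higher range and at 3.07 to 5.68 CPM in the 5 of the lower. Nr1d1 lay at 59.3 to 86.6 CPM in the higher range and at 184 to 344 CPM in the lower. Per3 (20.8 to 31.9 against 47.1 to 88.4 CPM) and Dbp (21.7 to 36.0 against 38.7 to 92.9 CPM) parted in the same way. Such a split held for 4 of 10 members, against 41.2% of all genes tested, so it is no more frequent among the clock genes than elsewhere.

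The libraries with the Tet2 knockout label address whether the same genes differ there between VitD and vehicle. No member was called by edgeR with the filter on low counts or by DESeq2, where edgeR called 0.198% of all genes. At an unadjusted p under 0.05 there were 2 members of 10, Cry1 and Nr1d1, against 13.3% of all genes. These were also the 2 members whose groups did not overlap, against 45.9% of all genes. The median log2 fold change of the members was -0.27, beside -0.01 over all genes.

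Nr1d1 stood at 86.6 and 184 CPM in Tet2KO_VitD libraries, against 185 and 333 CPM in Tet2KO_vehicle libraries. Tet2KO_VitD 2 and Tet2KO_vehicle 1 are almost level, so that the groups are hardly apart, and the log2 fold change was -0.94 (SE 0.41, adjusted p = 0.377). Cry1 stood at 12.9 and 5.68 CPM in Tet2KO_VitD libraries, against 3.07 and 4.63 CPM in Tet2KO_vehicle libraries (log2 1.26, SE 0.40, adjusted p = 0.262). The high Cry1 value is that of the library in the higher number range. Without Tet2KO_VitD 2 both passed the test, Cry1 at a log2 of 1.73 (adjusted p = 0.0144) and Nr1d1 at -1.58 (adjusted p = 0.0484). Within the lower number range, where Tet2KO_VitD 2 stands alone against both vehicle libraries, Cry1 had a log2 of 0.56 and Nr1d1 of -0.49, each with an adjusted p of 1.

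The period genes behaved differently from those in WT in value, though not by the test of the difference given below. The VitD pairs also differ in number range, both WT_VitD libraries but only Tet2KO_VitD 1 being of the higher. With the range as a covariate, the WT log2 fold change was -0.98 for Per2, -0.82 for Per3 and 0.12 for Per1. In the libraries labelled Tet2 knockout it was 0.41, -0.03 and 0.63 in the same order. Per2 stood at 57 and 101 CPM in Tet2KO_VitD libraries, against 39.3 and 113 CPM in Tet2KO_vehicle libraries (log2 0.06, SE 0.46, adjusted p = 0.961). Per3 stood at 31.9 and 53.8 CPM in Tet2KO_VitD libraries, against 47.1 and 62.6 CPM in Tet2KO_vehicle libraries (log2 -0.35, SE 0.33, adjusted p = 0.633). Per1 stood at 114 and 166 CPM in Tet2KO_VitD libraries, against 96.8 and 118 CPM in Tet2KO_vehicle libraries (log2 0.38, SE 0.24, adjusted p = 0.504). In all 3 genes the groups overlap, and Tet2KO_VitD 2 is the higher of its pair.

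Dbp stood at 36.0 and 47.6 CPM in Tet2KO_VitD libraries, against 38.7 and 71.1 CPM in Tet2KO_vehicle libraries (log2 -0.39, SE 0.35, adjusted p = 0.616). Nr1d2 stood at 130 and 123 CPM in Tet2KO_VitD libraries, against 123 and 212 CPM in Tet2KO_vehicle libraries (log2 -0.41, SE 0.35, adjusted p = 0.604). For both genes the groups overlap, and Tet2KO_vehicle 2 is the highest of the 4 libraries. In the positive arm Arntl stood at 17.8 CPM in each Tet2KO_VitD library, against 29.1 and 11.2 CPM in Tet2KO_vehicle libraries (log2 -0.18, SE 0.42, adjusted p = 0.865). Npas2 stood at 8.45 and 20.7 CPM in Tet2KO_VitD libraries, against 41.5 and 8.93 CPM in Tet2KO_vehicle libraries (log2 -0.78, SE 0.69, adjusted p = 0.617). Clock stood at 109 and 87.7 CPM in Tet2KO_VitD libraries, against 112 and 107 CPM in Tet2KO_vehicle libraries (log2 -0.16, SE 0.18, adjusted p = 0.704). The Tet2KO_vehicle pair spans the treated pair for Arntl, and nearly so for Npas2, where Tet2KO_VitD 1 is the lowest by a little.

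**Figure D2:**
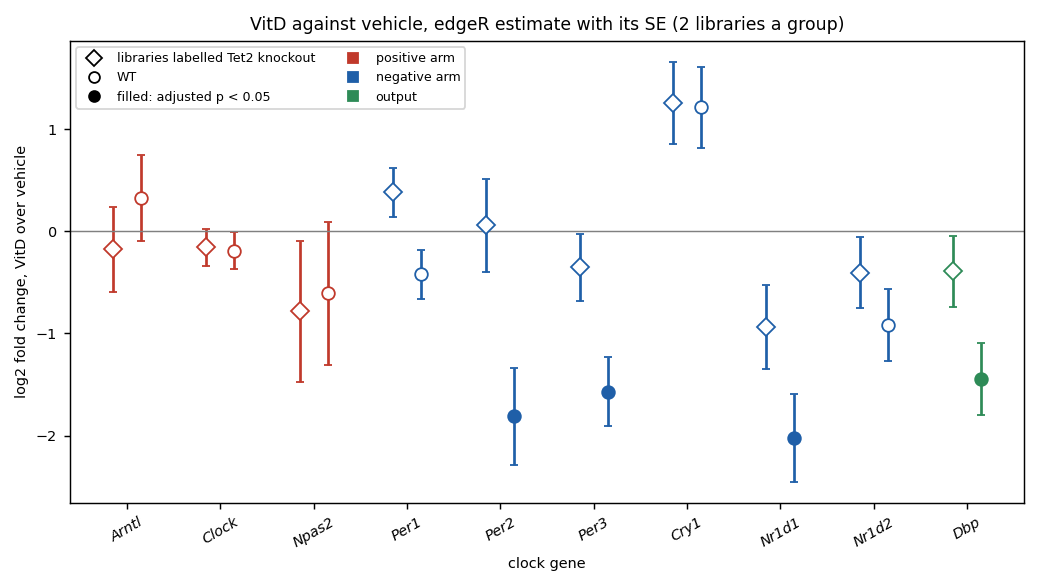
Log2 fold change of VitD over vehicle (vertical axis) for each clock gene (horizontal axis), in the libraries labelled Tet2 knockout (diamonds) and in WT (circles), with bars for 1 SE and filled symbols for an adjusted p under 0.05. The 4 filled symbols, all in WT, lie between -2.02 and -1.45, and Cry1 lies above 1 in both genotypes without passing the threshold.

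**Figure D3:**
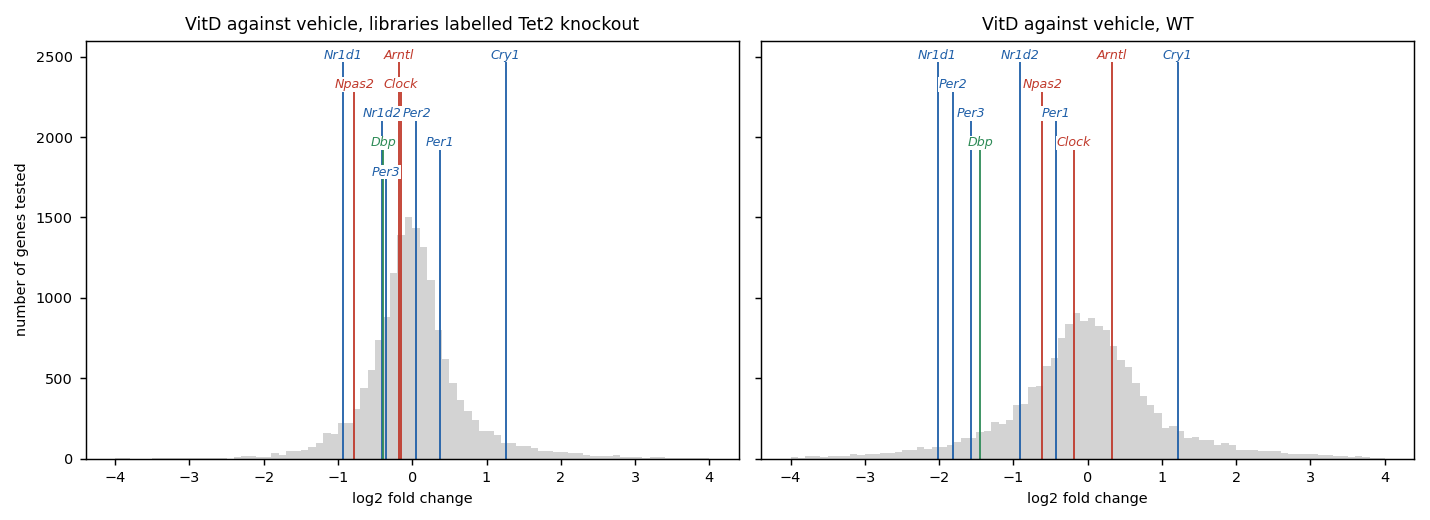
Number of genes tested (vertical axis) by log2 fold change of VitD over vehicle (horizontal axis, shown from -4 to 4 in steps of 0.1), for the libraries labelled Tet2 knockout and for WT, with a line at each clock gene. In WT the lines of Nr1d1, Per2, Per3 and Dbp lie in the lower tail, where 4.2% to 7.9% of genes are lower still, and Cry1 lies in the upper tail with 90.4% of genes below it.

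The genotype comparisons gave no called member. In the libraries labelled Tet2KO_vehicle against WT_vehicle, edgeR called 0 of 10 members and 0% of all genes, with 0 members at an unadjusted p under 0.05 (2.97% of all genes) and 0 members called by DESeq2. No member's libraries were apart between Tet2KO_vehicle and WT_vehicle, where 29.8% of all genes were. The largest values were -0.70 for Per2 (SE 0.46), -0.47 for Dbp (SE 0.34) and 0.40 for Arntl (SE 0.42), each with an adjusted p of 1.

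Under VitD, edgeR again called 0 of 10 members and 0% of all genes, and DESeq2 called 0 members. Unadjusted p under 0.05 was reached by 4 members, Per1, Per2, Per3 and Nr1d1, against 10.6% of all genes, and 7 of 10 members did not overlap between Tet2KO_VitD and WT_VitD libraries, against 43.8%. The log2 fold change was 1.17 for Per2 (SE 0.46), 0.89 for Per3 (SE 0.33), 0.62 for Per1 (SE 0.24) and 1.0 for Nr1d1 (SE 0.42), each with an adjusted p of 0.467. Cry1 (log2 -0.31) and Arntl (log2 -0.10) had adjusted p-values of 0.755 and 0.934. Within the higher number range, where Tet2KO_VitD 1 stands against both WT_VitD libraries, the values were 0.70 for Per2, 0.47 for Per3, 0.32 for Per1 and 0.36 for Nr1d1, with adjusted p-values from 0.282 to 0.448. This comparison shares its WT_VitD libraries with that of VitD in WT.

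The interaction tests whether the response to VitD differs between genotypes. Both WT_VitD libraries are of the higher number range, but of the Tet2KO_VitD libraries only replicate 1 is. All vehicle libraries are of the lower range, so the interaction also holds a difference in range. The interaction called 0 of 10 members and 0% of all genes by edgeR, and 0 members by DESeq2. Per1, Per2 and Per3 had an unadjusted p under 0.05, against 6.21% of all genes. The interaction was 1.87 for Per2 (SE 0.65), 1.22 for Per3 (SE 0.47), 0.80 for Per1 (SE 0.34) and 1.06 for Dbp (SE 0.49), each with an adjusted p of 0.794. That of Nr1d1 was 1.08 (SE 0.58, adjusted p = 0.809) and that of Cry1 0.04 (SE 0.56, adjusted p = 0.994). Without the filter on low counts edgeR called 403 genes in the interaction, and it called more genes than the reported fit in every contrast. Per2 (log2 1.85, adjusted p = 8.74e-06) and Per3 (log2 1.20, adjusted p = 0.023) were among the 403. With the filter the difference in response did not pass the test for any member, which does not show that the genotypes responded alike.

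Libraries of the same group differed from each other by more at the median of the clock genes than at the median of all genes. The median absolute log2 difference between the libraries of a pair was 0.65 over the members in Tet2KO_VitD, 0.82 in Tet2KO_vehicle, 0.26 in WT_VitD and 0.69 in WT_vehicle. Over all genes tested it was 0.39, 0.23, 0.20 and 0.31 in the same groups. This is a description of 4 pairs, with no test.

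In the vehicle pairs the arms of the clock differed in opposite directions. Within Tet2KO_vehicle, replicate 1 had 2.61 times the Arntl and 4.64 times the Npas2 of replicate 2, with Clock about level at 1.04 times. The same library was lower in all 6 genes of the negative arm and in Dbp, with replicate 2 at 2.87 times its Per2, 1.80 times its Nr1d1 and 1.84 times its Dbp. Within WT_vehicle the higher Arntl and Npas2 were in replicate 2, by 1.82 and 2.58 times, while replicate 1 had 1.68 times the Nr1d1, 1.91 times the Nr1d2, 1.81 times the Per3 and 1.55 times the Dbp. Cry1 and Clock were the exceptions there, Cry1 being 1.18 times higher in replicate 2 and Clock 1.24 times higher in replicate 1. Tet2KO_vehicle 2 and WT_vehicle 1 thus shared high Nr1d1 with low Arntl, across genotype labels.

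**Figure D4:**
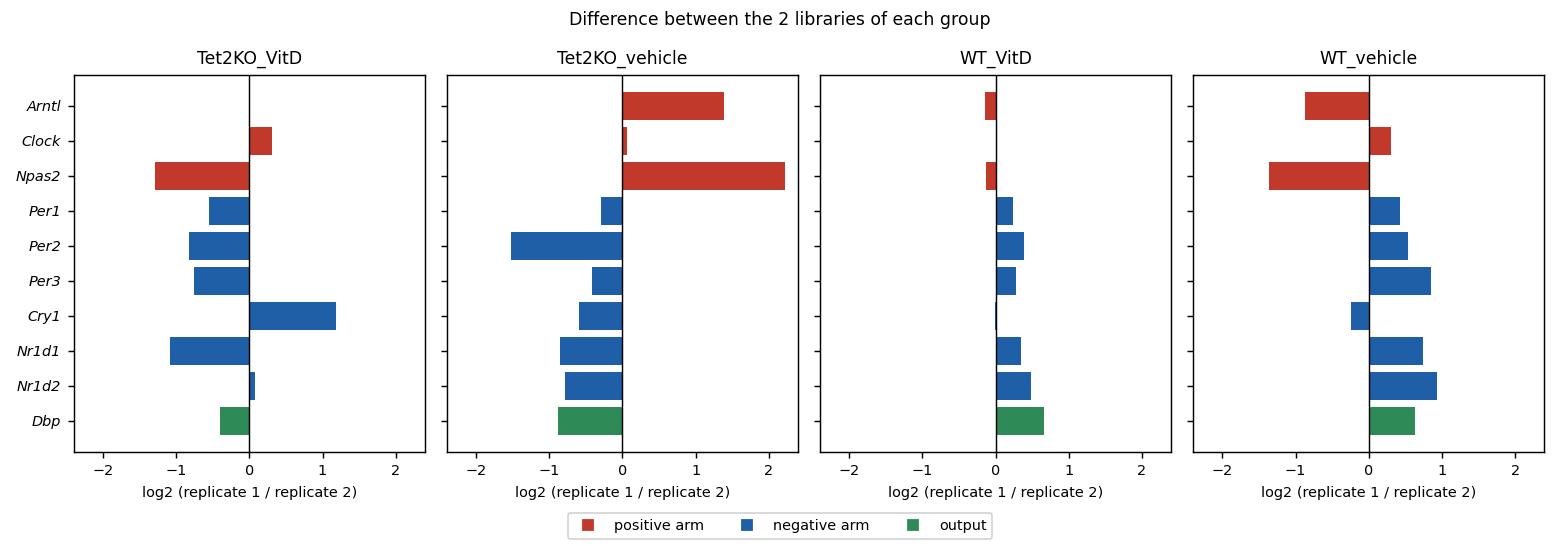
Log2 ratio of replicate 1 to replicate 2 (horizontal axis) for each clock gene (vertical axis) within each of the 4 groups, coloured by arm. In Tet2KO_vehicle and WT_vehicle the bars of Arntl and Npas2 point away from those of the Per and Nr1d genes and Dbp, whereas WT_VitD bars are short, the longest being Dbp at 1.57 times.

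VitD against vehicle in WT did not have this form on both sides. Of the negative arm all but Cry1, and Dbp, had lower values in both WT_VitD libraries than in either WT_vehicle library, but Arntl and Npas2 overlapped between the groups. The log2 ratio of Npas2 to Per2, per kilobase, was -1.40 and -0.88 in WT_VitD libraries, against -3.44 and -1.54 in WT_vehicle libraries, and reached 0.37 in Tet2KO_vehicle 1. The log2 ratio of Arntl to Nr1d1 was -3.35 and -2.86 in WT_VitD libraries, against -6.28 and -4.67 in WT_vehicle libraries. So the libraries with the least Nr1d1 were not those with the most Npas2: Nr1d1 was lowest in WT_VitD 2, where Npas2 stood at 13.5 CPM, and Npas2 was highest in Tet2KO_vehicle 1, where Nr1d1 stood at 185 CPM. Within Tet2KO_VitD the form was mixed, since replicate 2 had 2.45 times the Npas2 and also 2.12 times the Nr1d1 and 1.77 times the Per2 of replicate 1, with Arntl level. How a clock displaced in time alters each arm depends on the hour of sampling, so the forms described here are no criterion for it. Within the vehicle pairs Arntl and Npas2 differed in the opposite direction to the Per and Nr1d genes and Dbp. In WT_VitD against WT_vehicle, Per2, Per3, Nr1d1 and Dbp were called lower and Clock was just lower in value. Cry1 was higher in value, and Arntl and Npas2 overlapped. The hour of collection is not stated, and its part in these differences was not tested.

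Of 19 other clock genes, 18 were tested and Rorb was too low. In WT, edgeR called 1 of the 18 higher, Timeless, and 0 lower, where 10.6% of all genes were called higher and 9.47% lower. Timeless, which in mammals serves DNA replication as well as the clock, stood at 10.2 and 14.2 CPM in WT_VitD libraries, against 5.22 and 5.24 CPM in WT_vehicle libraries (log2 1.22, SE 0.27, adjusted p = 0.0205). The next smallest p was that of Hlf, a relative of DBP, at 14.4 and 7.81 CPM in WT_VitD libraries, against 27.6 and 17.7 CPM in WT_vehicle libraries (log2 -1.03, SE 0.32, adjusted p = 0.0523). The median log2 fold change of the 18 was -0.18 in WT, where 11 did not overlap between groups, against 69.2% of all genes.

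In the libraries labelled Tet2 knockout no other clock gene was called under VitD by edgeR. Timeless was higher there in value (log2 0.84, SE 0.27, adjusted p = 0.262) but did not pass the test. For Tet2KO_vehicle against WT_vehicle the smallest p-values were those of Usp2, a deubiquitinase with a daily rhythm (log2 0.31, adjusted p = 1), and of the F-box gene Fbxl21 (log2 0.52, adjusted p = 1). For Tet2KO_VitD against WT_VitD they were those of Hlf (log2 0.99, SE 0.32, adjusted p = 0.457) and of Tef, another relative of DBP (log2 0.56, SE 0.27, adjusted p = 0.479). In the interaction they were again Hlf (0.86, SE 0.45, adjusted p = 0.803) and Tef (0.70, SE 0.38, adjusted p = 0.812). Hlf and Tef are, like Dbp, PAR bZIP factors that bind D-boxes.

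Transcripts of genes that answer signals able to reset peripheral clocks were read in the same libraries. Of 6 glucocorticoid targets edgeR called 0 in each of the 5 contrasts. Their summed level was 1036 and 995 CPM in WT_VitD libraries, against 974 and 510 CPM in WT_vehicle libraries, and 1528 and 959 CPM in Tet2KO_VitD libraries, against 477 and 875 CPM in Tet2KO_vehicle libraries. In each vehicle pair and in WT_VitD the library with more Nr1d1 was the one with the higher sum, whereas in Tet2KO_VitD it was the one with the lower sum. Fkbp5, a glucocorticoid-induced chaperone, stood at 308 and 124 CPM in Tet2KO_VitD libraries, against 14.6 and 87.7 CPM in Tet2KO_vehicle libraries. In WT_VitD libraries it stood at 153 and 215 CPM, against 82.8 and 34.9 CPM in WT_vehicle libraries. Its log2 fold change was 1.64 in WT (edgeR adjusted p = 0.144) and 2.08 in the libraries labelled Tet2 knockout (adjusted p = 0.307). In WT, 4 of the 6 targets had log2 fold changes above 0 and 2 below, Klf9 (-0.27) and Zbtb16 (-0.16). All 6 were above 0 in the libraries labelled Tet2 knockout. The medians were 0.51 and 0.82. Of 10 immediate early genes, 2 rose in WT under VitD, Junb (log2 2.0, SE 0.23, adjusted p = 0.00284) and Ier2 (log2 0.67, SE 0.19, adjusted p = 0.0406). That count stands beside 10.6% of all genes called higher and 20.1% in either direction, and 6 of the 10 had log2 fold changes below 0, with a median of -0.16. The summed level of the 10 ranged from 490 to 719 CPM under VitD, against 498 to 899 CPM under vehicle. The signals themselves were not measured, and their part in the clock values was not tested.

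Levels of cell type markers also differed between the groups, and some of them parted by number range. The smooth muscle markers below summed to 14970 to 22310 CPM in the higher range and 27320 to 29700 CPM in the lower. The macrophage markers summed to 2016 to 2441 CPM in the higher range and 458 to 1171 CPM in the lower. In WT, range and treatment cannot be told apart. The summed level of 6 smooth muscle markers, Acta2 and Myh11 among them, was 22310 and 14970 CPM in WT_VitD libraries, against 28680 and 29700 CPM in WT_vehicle libraries, and 20120 and 27790 CPM in Tet2KO_VitD libraries, against 29550 and 27320 CPM in Tet2KO_vehicle libraries. In WT, edgeR called 2 of these 6 lower, Myh11 and Smtn, beside 9.47% of all genes. Acta2 (log2 -0.58, edgeR adjusted p = 0.202) and Tagln (log2 0.04, adjusted p = 0.929) were not called. The 6 macrophage markers, all called higher in WT under VitD, summed to 2016 and 2441 CPM in WT_VitD libraries, against 458 and 476 CPM in WT_vehicle libraries, and to 2091 and 1171 CPM in Tet2KO_VitD libraries, against 618 and 732 CPM in Tet2KO_vehicle libraries. The 6 skeletal muscle markers, also all called higher in WT under VitD, summed to 99.5 and 433 CPM in WT_VitD libraries, against 28.5 and 32.4 CPM in WT_vehicle libraries, and to 13.3 to 22.0 CPM in the libraries labelled Tet2 knockout. The 6 thymocyte markers summed to 26.9 CPM in Tet2KO_vehicle 2 and 88.7 CPM in WT_vehicle 1, the 2 vehicle libraries with high Nr1d1, and to 13.5 CPM in Tet2KO_vehicle 1 and 3.53 CPM in WT_vehicle 2. In WT_VitD libraries they summed to 4.57 and 3.68 CPM. Rag1, which thymocytes need for receptor rearrangement, stood at 10.1 CPM in Tet2KO_vehicle 2 and 37.4 CPM in WT_vehicle 1. Summed brown fat markers ranged from 222 to 1043 CPM under VitD, against 483 to 882 CPM under vehicle. In WT under VitD, 10.6% of all genes were called higher and 9.47% lower. Of the other lists, 4 of 5 neutrophil, 1 of 5 fibroblast and 1 of 6 brown fat markers were called higher there. None of 5 endothelial or 5 white fat markers was called higher. Lower calls went to 2 thymocyte markers, Rag1 and Dntt. Those 2 calls rest on WT_vehicle 1, since Rag1 had 2 and 1 counts in WT_VitD libraries, against 601 and 1 counts in WT_vehicle libraries, and Dntt had 0 counts in both WT_VitD libraries, against 193 and 4 counts in WT_vehicle libraries. In bulk tissue, fewer cells of a type and less RNA per cell cannot be told apart, and the part of these markers' cell types in the clock values was not tested.

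The genes most like Arntl and Nr1d1 over the 8 libraries were ranked by Pearson r of log2 CPM among 11085 other genes averaging 5 CPM or more. The libraries share groups and number ranges, so these values are descriptions. Closest to Nr1d1 were Mark1 (r = 0.995), Cpeb1 (0.995), Taf4 (0.991), Msantd2 (0.991) and Cap2 (0.990). Among the members Per3 came 53rd in likeness to Nr1d1 (r = 0.974), Dbp 419th (0.932), Nr1d2 1345th (0.857) and Per2 1445th (0.848). Closest to Arntl were Hlcs (r = 0.982), Parp16 (0.978), Fbxo17 (0.962), Mtmr9 (0.956) and Tbc1d7 (0.946), with Npas2 at 161st (0.743). At the opposite end, counted from the most opposed gene, Nr1d2 came 218th (r = -0.731), Per2 257th (-0.720) and Dbp 352nd (-0.679) against Arntl, while Nr1d1 was 991st (-0.508). Clock was not close to either (r = -0.290 with Arntl and 0.473 with Nr1d1).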

How the data were processed

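Poly-A RNA of the whole mouse aortic tree was sequenced from stranded libraries, per the labels' protocols. The authors deposited whole-number counts of reads for each gene symbol. Per the submitters' processing notes, the tools included featureCounts 2.0.2, STAR 2.7.8a and Trimmomatic 0.39, and the build was mm10. Strand setting, annotation release and handling of multiply mapped reads are not stated in the sources used here. Groups and replicate numbers come from sample titles. Counts were fitted with edgeR 4.0.16 in R 4.3.3 (TMM, filterByExpr, quasi-likelihood test, 1 mean per group, 8 libraries, 4 residual degrees of freedom) and 5 contrasts were tested, with Benjamini-Hochberg adjustment over all 16194 genes tested within a contrast and a threshold of 0.05. SE was derived from the fold change and F statistic. Alternatives were DESeq2 1.42.0, other scalings, filters, samples and covariates. Coordinates and exon lengths come from GENCODE M21 (mm10), promoters from RefSeq.

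The members and lists were chosen with earlier results of these data known. The rule for names took the 10 members always, other clock genes when called or among the 2 smallest p in a contrast, and the 5 genes most like Arntl and Nr1d1, leaving out predicted genes; 1 gene that this rule takes is not reported here. The log2 CPM used a prior count of 2. Sphk2 was named after its overlap with Dbp was found, and the glucocorticoid, immediate early and marker genes named singly were chosen after their values were seen. The test was tried on simulated data for the WT contrast (16194 genes): at a log2 size of 1 it found 32% of 100 altered genes, at a size of 2 it found 84% of 100, and 4 unaltered genes were called. The simulation altered far fewer genes than the 3251 called in WT and held no difference between number ranges. These rates therefore need not hold for the real contrast. Libraries held 15679274 to 22332149 counts.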

Additional observations from a re-analysis of the deposited data

How the results depend on the processing

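All values here are counts of calls at an adjusted p under 0.05, out of 16194 genes in the reported fit. In WT under VitD, 3251 genes and 4 members were called. Adding the number range as a covariate, 58 genes and 0 members were, and leaving out 1 library gave 140 to 4946 genes and 0 to 5 members. In the libraries labelled Tet2 knockout under VitD, 32 genes and 0 members were called. No filter gave 1225 genes and 2 members, DESeq2 461 genes, the number range as a covariate 20, only the groups compared 2, the lower number range alone 16 (chosen after seeing the data), and leaving out 1 library 0 to 1898 genes and 0 to 2 members. Tet2KO against WT gave 0 calls in the reported fit. Under vehicle, no filter gave 164 genes and DESeq2 18. Under VitD, no filter gave 610 genes and 3 members, DESeq2 96 genes, the number range as a covariate 16, the higher number range alone 25 (also chosen after seeing the data), and leaving out 1 library 0 to 674. For the interaction, with 0 calls in the reported fit, no filter gave 403 genes and 2 members, DESeq2 18 genes, the number range as a covariate 7, and leaving out 1 library 0 to 37. The causes were not tested. A fit that leaves out a library assumes that the lone library of its group varies like the others. No result changed sign while called.

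Replicate numbers recur across groups, and the deviations of same-numbered libraries from their group means had correlations from -0.115 to 0.138. In a group of 2 libraries the deviations mirror each other, so these values cannot show whether same-numbered libraries shared handling. With the replicate number as a block, 2474 genes and 4 members were called in WT and 24 genes and 0 members in the libraries labelled Tet2 knockout, with 0 calls in the other contrasts. Cry1 rests on the fewest counts of the members, 50 to 207 per library.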
